A study of Mus musculus with 6 samples.

Results

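The genes of the translation initiation factors were followed in mouse cells labelled as hematopoietic stem cells, with and without a knockout of Ppp2ca. Ppp2ca encodes the alpha isoform of the catalytic subunit of the phosphatase PP2A. The initiation factor genes were taken by name, as the symbols that begin with Eif1 to Eif6, without the eIF2 kinases (Eif2ak) and without pseudogenes. The rule found 52 symbols among 52550 genes, and 49 of them had a normalised value of 1 or more in 3 or more of the 6 libraries and were tested, as were 20136 genes in all. Eif2s3y, Eif4e1b and Eif2c5, an older Argonaute-type name that the rule also takes, were at 0 in all 6 libraries.

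Translation of most mRNAs starts when eIF2, carrying GTP and the initiator tRNA, joins the small ribosomal subunit together with eIF1, eIF1A, eIF3 and eIF5. The eIF4F complex binds the mRNA cap and brings the loaded subunit to the mRNA, and eIF5B then helps the large subunit to join at the start codon. The step is held back when eIF2 is phosphorylated, since eIF2B can then no longer reload it with GTP, and when unphosphorylated 4E-BPs hold the cap-binding protein eIF4E. In blood stem cells a low rate of protein synthesis is a known property.

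The 3 knockout (KO) libraries came from cells labelled as bone marrow hematopoietic stem cells, of the genotype VAV1crePpp2caf/f. In this genotype both floxed Ppp2ca alleles are combined with a Cre driven by Vav1, a promoter active in blood cells. The 3 wild-type (WT) libraries came from cells of the genotype Ppp2caf/f, with the same floxed alleles and no Cre named, so effects of Cre and of the deletion cannot be told apart. The labels name no age, sorting markers or number of animals. Nothing states that libraries of a group came from separate animals, so p-values measure the spread between these libraries only. The values are normalised read counts per gene, and division by each library's step gave back 46033994, 50992981 and 58692037 reads in KO and 37951985, 48665968 and 47815466 reads in WT.

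Ppp2ca averaged 23398 ± 862 normalised reads in KO and 33176 ± 271 in WT (SD, n = 3 each), a log2 fold change of -0.50 ± 0.07 (SE) with adjusted p = 0.00268 (limma). The cells differed in their stem and lineage genes as well. Of 12 listed stem cell markers 11 fell, among them Hlf, Mecom, Procr, Slamf1, Kit and Cd34, and their summed level was 32592 to 52021 in KO and 96235 to 107918 in WT. Ly6a, a stem cell surface marker, averaged 480 ± 108 in KO and 613 ± 257 in WT (adjusted p = 0.555). Of 9 tested granulocyte-monocyte progenitor markers 8 rose, with a summed level of 1889180 to 2102560 in KO and 1273950 to 1504400 in WT. Of 8 megakaryocyte and platelet markers 7 fell, with 5329 to 7758 in KO and 29924 to 31690 in WT. Of 10 erythroid markers 8 fell and 1 rose, with 18316 to 33778 in KO and 46935 to 56903 in WT. Of 9 mast cell, basophil and eosinophil markers 7 fell, with 14299 to 28609 in KO and 64786 to 134907 in WT. Of 6 tested B lineage markers 2 fell (5806 to 7131 in KO, 31259 to 54107 in WT), and Pax5 and Ebf1 were at 0. Of 8 tested T and NK cell markers 6 fell and 1 rose, Cd8a was at 0, and the sum was 41721 to 43943 in KO and 33969 to 35392 in WT. Nearly all of that sum was Nkg7, the gene that rose, and without it the sum was 83.6 to 129.7 in KO and 624.5 to 778 in WT. Of 10 monocyte and macrophage markers 4 fell (26806 to 37433 in KO, 64810 to 77860 in WT). Of 10 mature granulocyte markers 3 rose and 1 fell (121253 to 267914 in KO, 83989 to 142524 in WT). The part of these markers in the initiation factor results was not tested. In bulk samples, fewer cells of a type and less RNA per cell cannot be told apart.

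Most initiation factor genes were higher in KO. Of the 49 tested genes 29 rose, 1 fell and 19 were not called at an adjusted p below 0.05 (limma over all tested genes), while 10.3% of all tested genes rose and 13% fell (23.3% in either direction). Scaled to the total count, 22 of these genes rose and 3 fell, and of all tested genes 1337 rose and 3511 fell, against 2069 and 2622 as reported. The median log2 fold change of the 49 genes was 0.41, against -0.02 over all tested genes, and 43 of the 49 had a positive value. Under quantile normalization these medians were 0.22 and 0.08, with 9 negative values among the 49. Scaled to the total count they were 0.27 and -0.16, with 8 negative values. In 38 genes every KO library lay above every WT library, and in 2 every KO library lay below, against 19.1% and 21.7% of all tested genes. Most of these genes are strongly expressed, and the background was higher among such genes. Of the 47 with a mean of at least 1000 normalised reads, 29 rose and 1 fell, while of all 7510 genes at that level 21.3% rose, 12.1% fell and 33.6% had every KO library above every WT library. Together the initiation factor genes held 1.66%, 1.58% and 1.60% of the normalised reads in KO, and 1.26%, 1.31% and 1.36% in WT. All KO shares lay above all WT shares.

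**Figure D1:**
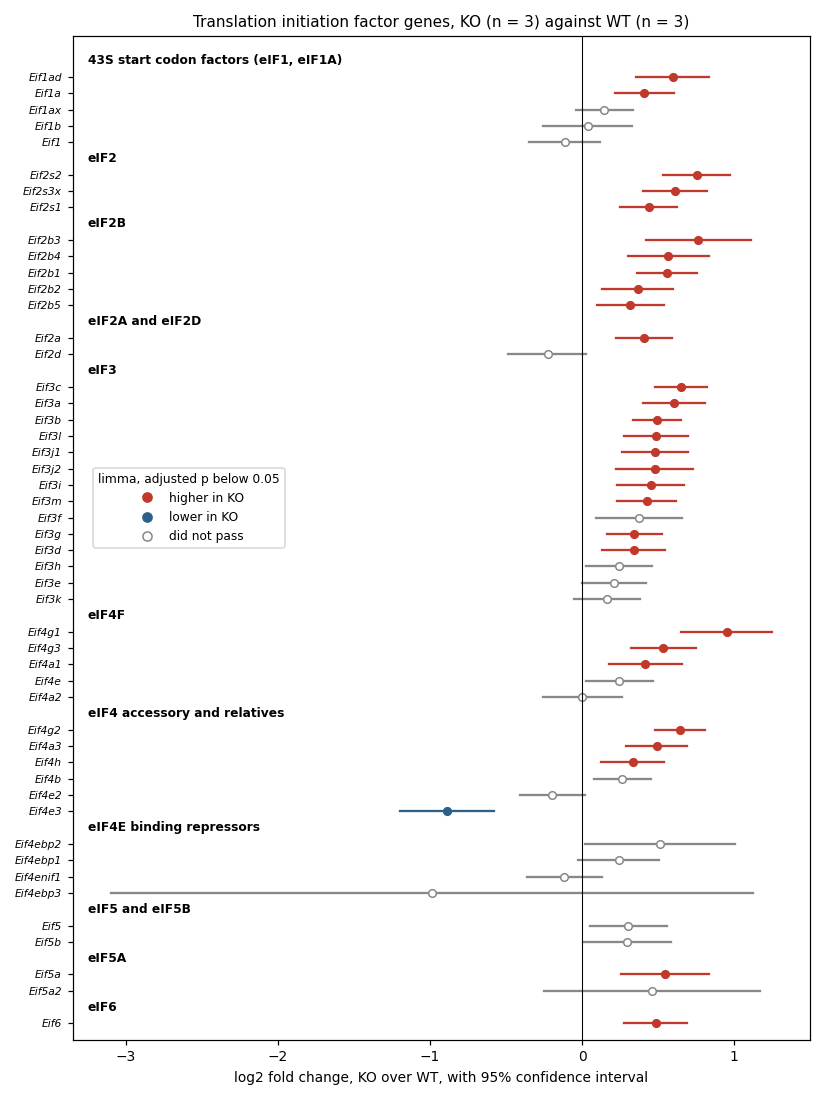
Log2 fold change (KO over WT) of each of the 49 tested initiation factor genes, grouped by complex, with 95% confidence intervals from limma. The 29 genes called higher lie right of 0 and Eif4e3 is the 1 gene called lower; all 14 eIF3 genes have positive values, though Eif3e turned to -0.001 under quantile normalization.

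The calls were not equally firm. The analysis was repeated under 19 other settings, and 10 of the 30 called genes passed in every one. They were Eif1ad, Eif2s2, Eif2s3x, Eif2b1, Eif3a, Eif3c, Eif4g1, Eif4g2 and Eif4g3 among those that rose, and Eif4e3, which fell. Without the intensity trend in limma 10 genes rose and 1 fell, and of all 20136 tested genes 1071 rose and 1750 fell. Without KO replicate 3 the counts were 17 and 1, and 993 and 1714 of all 19487 tested genes. Of the 19 genes not called, 11 passed under some other setting, Eif4b in 8 of them and the others in 1 or 2. Among the 11, Eif1 passed as a fall under quantile normalization, and Eif2d and Eif4e2 as falls when scaled to the total count. Unless another setting is named, a gene is called or not called here by limma with the trend and all 6 libraries.

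All 3 detected subunit genes of eIF2, the factor that carries the initiator tRNA, rose, while 21.3% of all genes with a mean of at least 1000 did. Eif2s1, the alpha subunit that the eIF2 kinases phosphorylate, had 24576, 27472 and 26494 normalised reads in KO and 18394, 20446 and 19127 in WT. The groups did not overlap, and the log2 fold change was 0.44 ± 0.08 (SE, adjusted p = 0.00786, limma), though the call was lost without the trend (0.0627) and under quantile normalization (0.0732). Eif2s2, the beta subunit, had 21545, 17698 and 20382 reads in KO and 11103, 12052 and 12139 in WT. That was the largest rise of the complex (0.75 ± 0.10, adjusted p = 0.00207), and the lowest KO library lay well above the highest WT library. Eif2s3x, the X-linked gamma subunit that binds the tRNA and GTP, had 10267, 12267 and 11683 reads in KO and 7325, 7737 and 7294 in WT. Its groups were also apart (0.61 ± 0.09, adjusted p = 0.00359). Of its 75-base stretches 34.2% also stand in transcripts of other genes, mainly pseudogenes, so part of its reads cannot be placed with certainty.

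All 5 subunit genes of eIF2B, which reloads eIF2 with GTP, rose, and in each of them every KO library lay above every WT library. Among all genes with a mean of at least 1000 normalised reads those shares were 21.3% and 33.6%. Eif2b1, the alpha subunit that holds the decamer together, had 7843, 7387 and 7357 reads in KO and 4735, 5245 and 5386 in WT. Its log2 fold change was 0.56 ± 0.09 (adjusted p = 0.00411), and it was the 1 eIF2B gene called under every setting. Eif2b3, the gamma subunit, had 5263, 4008 and 4260 reads in KO and 2481, 3138 and 2352 in WT (adjusted p = 0.00983). KO averaged 169.7% of WT, the largest rise of the 5, but its libraries were widely spread, with a mean of 4510 ± 664 in KO and 2657 ± 422 in WT (SD). Eif2b4, the delta subunit, had 3024, 2904 and 2821 reads in KO and 1700, 2161 and 2067 in WT (0.57 ± 0.12, adjusted p = 0.012). Both Eif2b3 and Eif2b4 lost the call without the trend (0.0514 and 0.0539). Eif2b2, the beta subunit, had 3975, 3648 and 4014 reads in KO and 2753, 3017 and 3275 in WT (0.37 ± 0.10, adjusted p = 0.0341). Eif2b5, the epsilon subunit with the catalytic domain, had 7840, 8962 and 9026 reads in KO and 6533, 6712 and 7491 in WT (0.32, adjusted p = 0.0479). These were the weakest calls of the complex, lost in 8 settings for Eif2b2 and in 10 for Eif2b5.

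**Figure D2:**
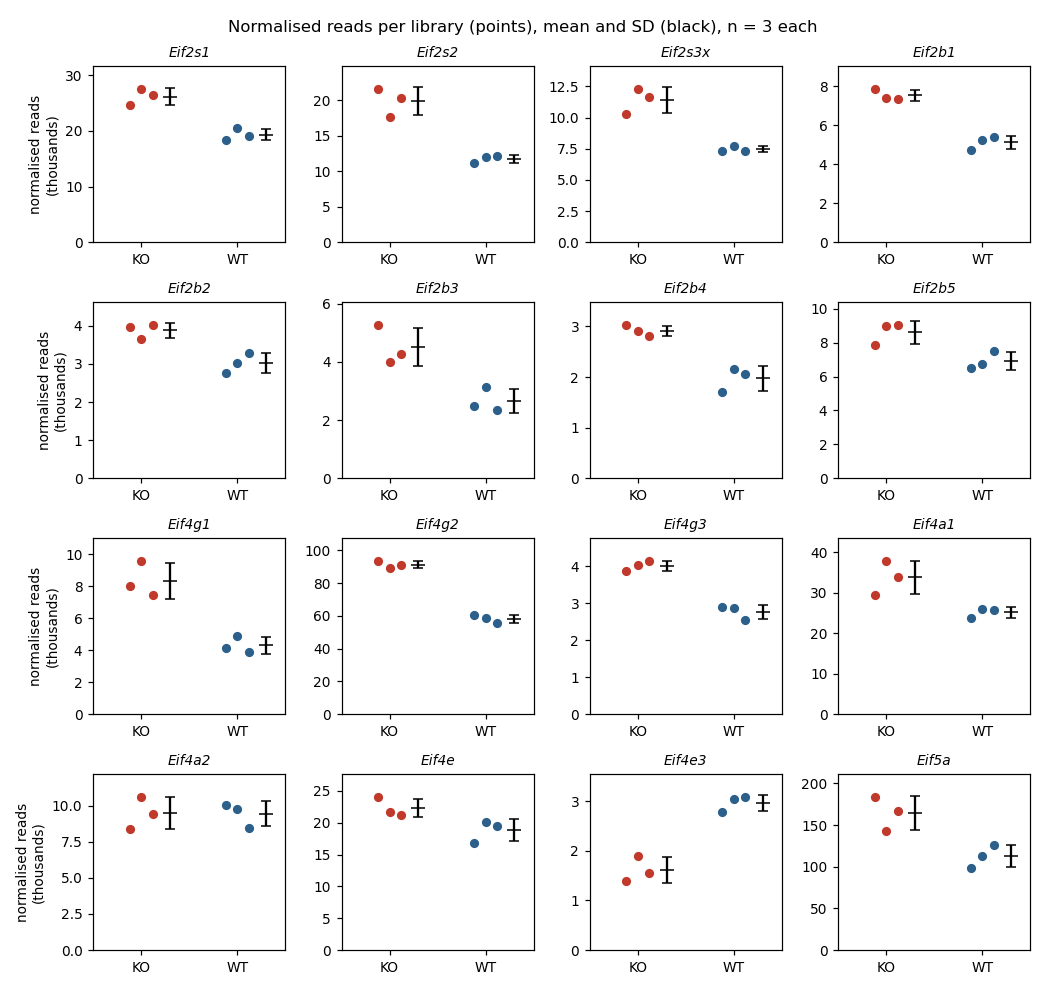
Normalised reads (axis in units of 1000) of 16 initiation factor genes in each library (points) with the group mean and SD (n = 3 each), KO left of WT. Every KO library lies above every WT library in all panels except Eif4a2, whose groups overlap, and Eif4e3, in which all KO libraries lie below.

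Outside eIF2 proper, Eif2a, an alternative initiator tRNA carrier that is no subunit of eIF2, had 4961, 4946 and 5160 reads in KO and 3634, 3882 and 3848 in WT. It rose by a log2 fold change of 0.41 ± 0.08 (adjusted p = 0.0103). Eif2d, a related non-canonical factor, averaged 3046 ± 322 in KO and 3560 ± 260 in WT (SD, n = 3 each), a log2 fold change of -0.23 that did not pass (adjusted p = 0.185).

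The factors that scan for the start codon were mixed. Eif1, which guards start codon choice, averaged 14504 ± 1786 in KO and 15604 ± 280 in WT (SD, n = 3 each; adjusted p = 0.481). Its paralog Eif1b averaged 2886 ± 182 in KO and 2829 ± 423 in WT (adjusted p = 0.867). For neither did the groups separate. Of the eIF1A genes, Eif1a had 19756, 22963 and 21281 reads in KO and 15997, 16790 and 15346 in WT. It rose (0.41 ± 0.08, adjusted p = 0.0121), while the X-linked Eif1ax, with 10211 ± 698 in KO and 9208 ± 95.1 in WT, did not pass (0.15, adjusted p = 0.236). Eif1ad, a gene with an eIF1A-like domain, had 9701, 9792 and 9771 reads in KO and 5596, 7139 and 6742 in WT. Its KO libraries were nearly equal and all above WT (0.60 ± 0.10, adjusted p = 0.00646). Of its exon bases 15.3% overlap Banf1 on the other strand, which averaged 13005 reads in KO and 11798 in WT, and no label or header says whether counting used strand.

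eIF3, the largest initiation factor, holds the small subunit and the mRNA together. Of its 14 genes 10 rose and 4 were not called. All 14 had positive log2 fold changes (Eif3e turned to -0.001 under quantile normalization), and in 13 every KO library lay above every WT library. At a mean of at least 1000 normalised reads, 21.3% of all genes rose and 33.6% had every KO library above every WT library. Of the stable subunits that budding yeast also has, Eif3a, a scaffold that contacts the small subunit, had 21400, 25371 and 23633 reads in KO and 14744, 16233 and 15193 in WT (0.61 ± 0.09, adjusted p = 0.00341). Eif3b, the other large scaffold subunit, had 43735, 42574 and 43753 reads in KO and 30107, 31962 and 30367 in WT (0.49 ± 0.07, adjusted p = 0.00284). Eif3c, which links eIF3 to eIF1 and eIF5, had 21756, 21339 and 20763 reads in KO and 12823, 13950 and 14013 in WT. It had the largest fold of the complex (0.65 ± 0.07, adjusted p = 0.00154). The other genes of this core had smaller log2 fold changes. Eif3g, an RNA-binding subunit, had 11728, 11101 and 12248 reads in KO and 8914, 9025 and 9687 in WT (0.34, adjusted p = 0.0183). Eif3i, a beta-propeller subunit, had 9260, 8515 and 9036 reads in KO and 5827, 6890 and 6918 in WT (0.45, adjusted p = 0.0132).

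The remaining subunits split between called and not called. Eif3l had 20016, 21591 and 20814 reads in KO and 13237, 15577 and 15868 in WT (0.49, adjusted p = 0.00881). Eif3m had 12459, 12895 and 13002 reads in KO and 8686, 9906 and 10062 in WT (0.42, adjusted p = 0.0109). Both are subunits that budding yeast lacks, and both lay wholly above WT in KO. Eif3d, a subunit known to bind the cap of some mRNAs, had 9746, 10777 and 10715 reads in KO and 7608, 8298 and 8805 in WT (0.34, adjusted p = 0.029). Its call was lost in 7 settings, and 43.3% of its exon bases overlap Gm17638 on the other strand, a gene with 68.8 reads in KO and 92.6 in WT. Eif3j1, a loosely bound subunit, had 9429, 10647 and 10188 reads in KO and 6654, 7894 and 7148 in WT (0.48, adjusted p = 0.00997). Its near-copy Eif3j2 had 2230, 2628 and 2381 reads in KO and 1597, 1826 and 1772 in WT (0.48, adjusted p = 0.0183). Of the 75-base stretches of Eif3j2 87.4% also occur in other genes, mainly Eif3j1, so the division of reads between the pair is uncertain. Eif3e, Eif3f, Eif3h and Eif3k, also absent from budding yeast, were not called, with log2 fold changes of 0.16 to 0.37 and adjusted p of 0.0629 to 0.265. Eif3e, Eif3f and Eif3h lay wholly above WT in KO, and in Eif3k the groups overlapped.

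Per kilobase of exon, the eIF3 genes ran in KO from 1014 normalised reads (Eif3j2) to 12957 (Eif3b), with a median of 2864, and in WT from 728 (Eif3j2) to 9209 (Eif3b), with a median of 2329. Genes of 1 complex thus differed 12.8-fold in KO and 12.7-fold in WT, with the same lowest and highest gene. Of the 75-base stretches of the lowest, Eif3j2, 87.4% also occur in other genes, so its level is uncertain. The next lowest was Eif3j1, with 1730 in KO and 1240 in WT. For eIF2 the range was 2942 (Eif2s2) to 5288 (Eif2s1) in KO and 1742 to 3903 in WT. For eIF2B it was 692 (Eif2b3) to 3318 (Eif2b5) in KO and 408 to 2663 in WT. Of all the initiation factor genes Eif5a had the highest level per kilobase, 69060 in KO and 47325 in WT.

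**Figure D3:**
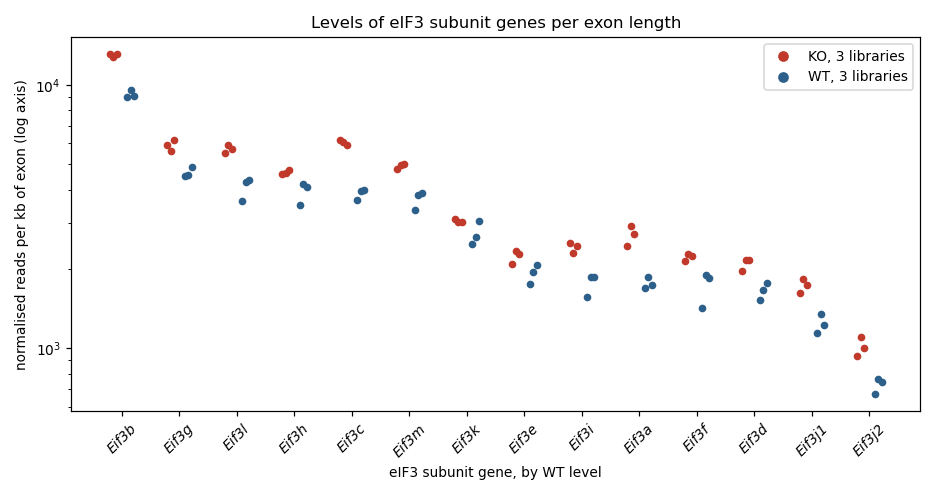
Normalised reads per kilobase of exon (log axis) of the 14 eIF3 genes in each library, ordered by their WT level. Eif3b is highest and Eif3j2, whose level is uncertain because it shares sequence with Eif3j1, lowest in both groups. The KO points lie above the WT points for 13 genes.

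In eIF4F, the cap-binding complex, the scaffold genes changed most. Eif4g1, the main scaffold that joins the cap-binding protein, the helicase and eIF3, had 7987, 9566 and 7448 reads in KO and 4154, 4905 and 3874 in WT. KO averaged 193% of WT, the largest rise of all the called initiation factor genes (0.95 ± 0.13, 95% confidence interval 0.65 to 1.25, adjusted p = 0.00261). Its relative Eif4g3 had 3870, 4043 and 4140 reads in KO and 2904, 2870 and 2556 in WT, and KO averaged 144.7% of WT (adjusted p = 0.00631). Eif4a1, the main RNA helicase of the complex, had 29565, 37828 and 34014 reads in KO and 23699, 26105 and 25886 in WT (0.42 ± 0.10, adjusted p = 0.0244). All 3 lay wholly above WT, as did 33.6% of genes with a mean of at least 1000 normalised reads. The Eif4a1 call was lost in 8 settings, and 25.4% of its 75-base stretches also stand in other genes. The other eIF4A helicase, Eif4a2, had 8370, 10577 and 9437 reads in KO and 10046, 9781 and 8461 in WT. The groups overlapped, and the sign of the difference turned with the scaling, to -0.16 under quantile normalization (0.00, 95% confidence interval -0.26 to 0.26, adjusted p = 0.992). Eif4e, the cap-binding protein itself, had 24009, 21686 and 21241 reads in KO and 16815, 20154 and 19557 in WT. Every KO library lay above every WT library, and KO averaged 118% of WT, but the difference did not pass (95% confidence interval 0.02 to 0.47, adjusted p = 0.106) and passed under none of the 19 other settings.

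Of the relatives and helpers of eIF4F, the only initiation factor gene that fell was a cap-binding relative. Eif4e3, an eIF4E-type protein with weaker cap binding, had 1391, 1900 and 1549 reads in KO and 2780, 3046 and 3078 in WT. KO averaged 54.4% of WT (-0.89 ± 0.13, 95% confidence interval -1.20 to -0.58, adjusted p = 0.0037), and the call held under all 19 other settings. The gene overlaps Gm20696 on the same strand over 14.8% of its exon bases, and that gene averaged 136 reads in KO and 243 in WT. Eif4e2, another eIF4E-type protein that acts mostly as a repressor, averaged 4240 ± 313 in KO and 4850 ± 255 in WT (SD, n = 3 each; adjusted p = 0.178). Eif4g2, a scaffold-like protein without the eIF4E site, was the most strongly expressed of this set, with 93294, 88931 and 91052 reads in KO and 60505, 58746 and 55736 in WT. It rose with little spread (0.64 ± 0.07, adjusted p = 0.00145). Eif4a3, a helicase of the exon junction complex rather than of initiation, had 13463, 14981 and 14747 reads in KO and 9425, 10561 and 10762 in WT (0.49, adjusted p = 0.00694). Eif4h, a helicase cofactor, had 30656, 29823 and 31204 reads in KO and 22002, 24109 and 26958 in WT (0.33, adjusted p = 0.0335). Its call was lost in 8 settings, and under quantile normalization the log2 fold change was 0.05 (adjusted p = 0.739). Eif4b, the other cofactor, averaged 10362 ± 720 in KO and 8605 ± 188 in WT (SD, n = 3 each) and just missed the threshold (adjusted p = 0.0516), passing in 8 of the 19 other settings.

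None of the 4 eIF4E-binding repressor genes was called by limma with all 6 libraries at equal weight, by edgeR or by DESeq2, and 1, Eif4ebp2, had an unadjusted p below 0.05. With library quality weights in limma Eif4ebp1 (adjusted p = 0.0478) and Eif4ebp2 passed, and Eif4ebp2 also passed without WT replicate 3 (adjusted p = 0.0332). Eif4ebp1, the 4E-BP best known as an mTOR target, had 4424, 4093 and 4683 reads in KO and 3211, 3946 and 4048 in WT. KO lay above WT in every library by a small margin (0.24 ± 0.12, adjusted p = 0.178). Eif4ebp2, its paralog, averaged 1874 ± 187 in KO and 1347 ± 402 in WT (SD, n = 3 each; adjusted p = 0.125). Eif4enif1, an eIF4E transporter and repressor, averaged 2639 ± 271 in KO and 2853 ± 115 in WT (adjusted p = 0.49). Eif4ebp3 had at most 1.07 normalised reads in KO and 5.68 in WT, at or near the floor of 3 reads, and was close to undetected. Of its exon bases 67.3% overlap AC115631.1 on the same strand, and 64.2% of its 75-base stretches also occur there.

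Late-acting factors were mixed. Eif5, which triggers GTP use by eIF2, averaged 30602 ± 3783 in KO and 24718 ± 1995 in WT (SD, n = 3 each; adjusted p = 0.0827). Eif5b, which joins the large subunit, averaged 5365 ± 333 in KO and 4400 ± 648 in WT (SD, n = 3 each; adjusted p = 0.131). In both genes, as in 33.6% of genes with a mean of at least 1000 normalised reads, every KO library lay above every WT library. Both had an unadjusted p below 0.05 (limma). Neither was called by edgeR, by DESeq2, or by limma with all 6 libraries at equal weight and no block for the replicate number. Eif5 passed in 2 of the 19 other settings, library quality weights (adjusted p = 0.0276) and limma with the replicate number as a block. Eif5a, which carries the modified residue hypusine and acts chiefly in elongation, had 183475, 142533 and 166458 reads in KO and 98938, 112998 and 125535 in WT. It was the most abundant initiation factor mRNA and rose (0.54, adjusted p = 0.0182), a call lost without the trend (0.0845) and without KO replicate 3 (0.0675). Its paralog Eif5a2 averaged 416 ± 36.8 in KO and 318 ± 118 in WT (adjusted p = 0.33). Eif6, which keeps the large subunit from joining too early, had 14148, 12493 and 13828 reads in KO and 8853, 9924 and 10149 in WT. KO averaged 139.9% of WT. The groups were separate (adjusted p = 0.00819), and of the 19 other settings the call was lost only without the trend (0.0585).

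Ratios between paralogs or partners within a library do not depend on the scaling between libraries, and 10 were compared. They are ratios of normalised reads without correction for exon length. The percentages thus serve to compare KO with WT and are not relative levels of the genes in a pair. With 3 libraries against 3, an exact permutation test (two-sided) cannot give a p below 0.1, so none of the 10 could pass. The groups did not overlap in 4 of them, and no share over other gene pairs was computed. Of all tested single genes, 19.1% had every KO library above every WT library and 21.7% had every KO library below. Eif4a2 stood at 28.3%, 28.0% and 27.7% of Eif4a1 in KO and at 42.4%, 37.5% and 32.7% in WT, a difference of -0.41 on the log2 scale (exact p = 0.1, adjusted 0.25). The KO ratios were nearly equal, while the WT ratios were spread. Eif4e3 stood at 5.79%, 8.76% and 7.29% of Eif4e in KO and at 16.5%, 15.1% and 15.7% in WT, a log2 difference of -1.14 (exact p = 0.1, adjusted 0.25). Eif4g3 stood at 48.5%, 42.3% and 55.6% of Eif4g1 in KO and at 69.9%, 58.5% and 66.0% in WT (exact p = 0.1, adjusted 0.25). Eif4e2 was also lower relative to Eif4e, at 16.2%, 20.8% and 20.3% in KO and 30.3%, 22.8% and 24.9% in WT (exact p = 0.1, adjusted 0.25). The repressor Eif4ebp1 stood at 18.4%, 18.9% and 22.0% of its target Eif4e in KO and at 19.1%, 19.6% and 20.7% in WT, and these overlapped (exact p = 1). The other 5 ratios overlapped too, with exact p of 0.2 to 1.

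**Figure D4:**
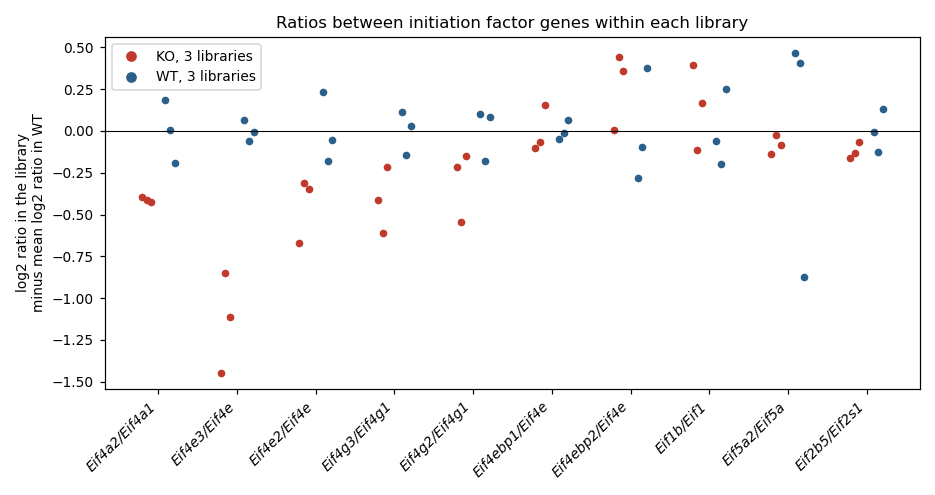
Within-library log2 ratios of 10 gene pairs, each minus the mean WT log2 ratio of that pair, with 1 point per library and KO left of WT. Eif4a2/Eif4a1, Eif4e3/Eif4e, Eif4e2/Eif4e and Eif4g3/Eif4g1 have all KO points below all WT points, and the other 6 pairs overlap.

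Promoters of the initiation factor genes were searched for the E-box, the letters CACGTG to which MYC-type factors bind. RefSeq (GRCm38.p6) windows from 250 bases before to 50 after the start were matched for 38 of the 49 genes. The E-box stood in 10 of the 38 (26.3%), against 11.2% of 11590 tested genes with a window and 7.15% of all 32851 windows. No share was computed among genes matched by level of expression. Genes with several start sites, such as Eif5a, had several windows and so more chances of a match. Shown are the 250 bases before the RefSeq start of Eif4g1, the gene with the largest rise, and of Eif4a1, its helicase partner, with the E-box in capitals. Each gene has 1 window in the RefSeq table, and that of Eif4g1 lies inside the gene as the files give it, which starts at position 20668313 of chromosome 16.
Eif4g1 (chr16:20672477-20672726, plus strand): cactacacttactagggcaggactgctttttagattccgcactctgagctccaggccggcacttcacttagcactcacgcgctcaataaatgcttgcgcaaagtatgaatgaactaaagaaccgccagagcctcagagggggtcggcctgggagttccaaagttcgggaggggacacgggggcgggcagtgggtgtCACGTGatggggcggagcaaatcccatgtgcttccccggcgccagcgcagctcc
Eif4a1 (chr11:69672424-69672673, minus strand): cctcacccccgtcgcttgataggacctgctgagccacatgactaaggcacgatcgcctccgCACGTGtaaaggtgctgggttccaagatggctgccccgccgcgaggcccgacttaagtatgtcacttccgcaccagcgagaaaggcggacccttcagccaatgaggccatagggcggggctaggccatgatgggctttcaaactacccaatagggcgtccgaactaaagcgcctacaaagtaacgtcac
The first base of the E-box lies at -54 in Eif4g1, which has another at 15 after the start, outside the stretch shown. In Eif4a1 it lies at -189. Of the 10 genes with an E-box 5 rose (Eif3a, Eif4a1, Eif4g1, Eif4h and Eif5a) and 5 were not called (Eif1b, Eif3f, Eif3k, Eif4e and Eif5a2). Of the 28 genes without one 18 rose and 10 were not called. The ETS-type letters CCGGAAGT stood in 7 of the 38 (18.4%, against 8.4% of tested genes) and the AP-1-type letters TGANTCA in 4 (10.5%, against 6.5%). The ATF4-type letters TGATGNAA stood in 1 (2.6%, against 3.0%). All were read on both strands, and a match is a description of these letters only.

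Around the initiation factors, 8 lists of 53 genes of the same pathway were followed in the same fit, and 19 of the 53 rose and 1 fell. Of all tested genes 10.3% rose and 13% fell, and of those with a mean of at least 1000 normalised reads 21.3% rose and 12.1% fell. Without the intensity trend 6 of the 53 rose and 0 fell, and with library quality weights 24 rose and 3 fell. Scaled to the total count, 10 rose and 7 fell, under quantile normalization 12 rose and 2 fell, and 8 rose without KO replicate 3 and 12 without WT replicate 2. The genes called under all 19 other settings were Mknk2, Pabpc4, Dnajc3, Dohh, Etf1 and Gspt1. In the list of eIF2 kinases and their regulators 2 of 10 rose and 1 fell, with a median log2 fold change of 0.25, counts near those of all genes at that level. Dnajc3, an inhibitor of eIF2 kinases, averaged 24084 ± 2533 in KO and 13339 ± 1078 in WT (SD, n = 3 each; 0.85, adjusted p = 0.00187). Ppp1r15b, which directs a phosphatase to eIF2 at all times, rose (0.58, adjusted p = 0.0337), a call lost in 6 settings. Ppp1r15a, its stress-induced relative, averaged 11467 ± 2334 in KO and 20186 ± 5096 in WT (SD, n = 3 each) and fell (-0.81, adjusted p = 0.0247). That fall was lost without the trend and without KO replicate 1, KO replicate 3 or WT replicate 2 (adjusted p of 0.0558 to 0.0951). None of the 4 eIF2 kinase genes was called, with log2 fold changes of 0.20 to 0.33, though with library quality weights Eif2ak1 (adjusted p = 0.034) and Eif2ak2 (adjusted p = 0.0258) passed. Gcn1l1, a coactivator of the kinase GCN2, had a log2 fold change of 0.77 that did not pass (adjusted p = 0.102). It passed in 4 of the 19 other settings, DESeq2 among them.

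In the list of mTORC1 and S6 kinase, the pathway that controls eIF4F, 3 of 15 rose, with a median of 0.05, a share (20%) near the 21.3% of all genes with a mean of at least 1000. They were Mknk2, a kinase of eIF4E (0.62, adjusted p = 0.00669), Larp1, a regulator of ribosomal protein mRNAs (0.82, adjusted p = 0.00931), and Mtor, the kinase itself (0.70, adjusted p = 0.0242), whose call was lost in 5 settings. Tsc1, an inhibitor of the pathway, had -0.41 (adjusted p = 0.0675) and passed as a fall in 3 of the 19 other settings, DESeq2 among them. Both hypusine enzymes, which modify eIF5A, rose. Dohh had 0.68 (adjusted p = 0.00251), and Dhps had 0.47 (adjusted p = 0.045), a call lost in 9 of the 19 other settings. A second, low identifier named Dohh that overlaps the first was left out.

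Beside the next 2 lists, 10.3% of all tested genes rose, and 21.3% of those with a mean of at least 1000 normalised reads. Of 7 helicase, reinitiation and recycling genes 3 rose, with a median of 0.40. They were Abce1, which recycles ribosomes (adjusted p = 0.0176), Ddx3x, a helicase for structured leaders (0.65, adjusted p = 0.0203), and Dhx29, a helicase that aids scanning (0.50, adjusted p = 0.0338). These calls were lost in 5, 6 and 7 of the 19 other settings, in that order. Of 6 poly(A) tail genes 2 rose, Pabpc4 (0.73, adjusted p = 0.0098) and Pabpc1 (0.34, adjusted p = 0.0476), both poly(A)-binding proteins that contact eIF4G. The median of that list was 0.24, and the Pabpc1 call was lost in 12 of the 19 other settings. The repressors of these proteins, Paip2 and Paip2b, had -0.51 and -0.53 (adjusted p = 0.0828 and 0.106). Paip2 passed as a fall in 3 of the 19 other settings, DESeq2 among them, and Paip2b in 1.

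The later steps of translation were followed in the same way, again beside 10.3% of all tested genes that rose and 21.3% at a mean of at least 1000. Of 8 elongation factor genes 5 rose, with a median of 0.36, among them Eef1g and Eef1d, parts of the exchange factor of eEF1A, and Eef2, the translocase, with log2 fold changes of 0.47 to 0.54 and adjusted p of 0.018 to 0.0303. Eef1e1, known as a component of the aminoacyl-tRNA synthetase complex, also rose (0.44, adjusted p = 0.0163). Each of these 4 calls was lost in 3 to 6 settings, and that of the fifth gene, Eef1b2, in 12. Eef1a1, the most abundant of them and named here outside the rule for named genes, averaged 65962 ± 4478 in KO and 65541 ± 4993 in WT (SD, n = 3 each; adjusted p = 0.955). Of 3 termination factor genes Etf1 (0.76, adjusted p = 0.00218) and Gspt1 (0.54, adjusted p = 0.00475) rose, and Gspt2 had -0.05 (adjusted p = 0.868). Of the mitochondrial initiation factors, Mtif2 had 0.05 and Mtif3 had -0.15. Neither was called by limma, edgeR or DESeq2, and 0 had an unadjusted p below 0.05.

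**Figure D5:**
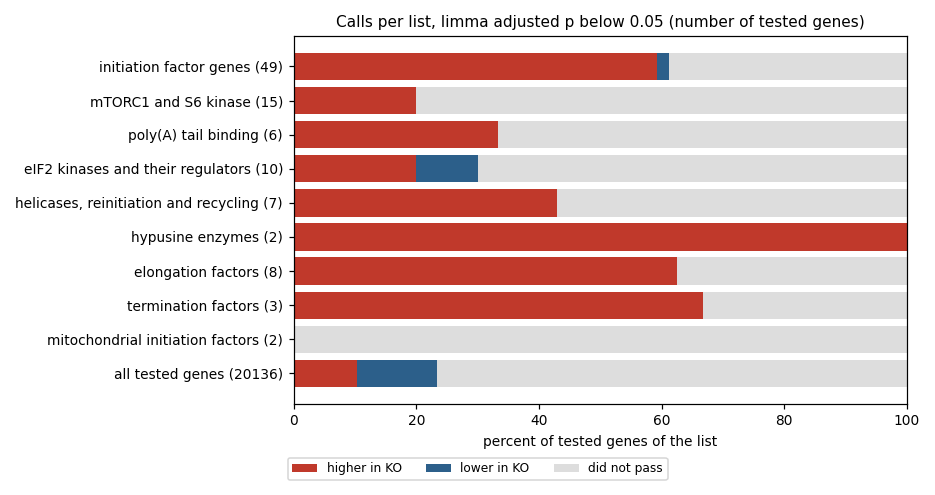
Percent of the tested genes of each list called higher, called lower or not called (KO against WT), for the initiation factor genes, the 8 pathway lists and all tested genes. All 20136 tested genes have 10.3% called higher and 13% called lower, and the 49 initiation factor genes have 29 called higher and 1 called lower.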

How the data were processed

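Per the labels' protocols, RNA was prepared with Trizol and poly(A) libraries with a VAHTS kit. The submitters' processing notes list HISAT2 and StringTie and the builds mm8 and mm10, with no roles. Each deposited value is a normalised signal of 1 gene in 1 library: read counts divided by 1 size factor per library, since 100% of values were whole multiples of a step (0.863 to 1.17) within 0.01 of a read. How multi-mapping reads and strand were handled is not stated there. Of the identifiers, 49035 were found in GENCODE M21 with the same coordinates, so GRCm38 is used, and exon lengths and overlaps come from that annotation.

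KO and WT (3 libraries each) were compared with limma 3.58.1 in R 4.3.3 (intensity trend) on log2(value + 1), which understates changes of low genes, for genes with at least 1 in at least 3 libraries. P-values are two-sided and Benjamini-Hochberg adjusted over all 20136 tested genes, with a threshold of 0.05. The design foresaw counts or normalised values, and its test for normalised values was used. edgeR 4.0.16 and DESeq2 1.42.0 were run on the recovered reads as alternatives. Levels between genes are per kilobase of exon union, except that the within-library ratios use normalised reads without correction for length. Confidence intervals of fold changes come from limma and thus from the spread between libraries. The floor of 3 reads covers counting error only, since reads carry no molecular identifiers.

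No replicate pair agreed within sampling noise (chi-square per degree of freedom 38.0 to 80.5), so each library counted once. All tested initiation factor genes are described. Values per library are given for called genes and for Eif2s1, Eif4e, Eif4a1, Eif4g1, Eif4ebp1, Eif5a and Eif6, and of each pathway list up to 4 genes with the smallest p are named. The genes, lists and ratios were chosen with earlier results of these data known. The comparison of genes with a mean of at least 1000 was chosen after seeing the data.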

Additional observations from a re-analysis of the deposited data

How the results depend on the processing

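The 29 rises and 1 fall among the initiation factor genes ranged over the 19 alternatives from 10 to 37 rises and from 1 to 3 falls. Limma without the intensity trend gave 10 rises, quantile normalization 18 rises and 2 falls, and scaling to the total count 22 rises and 3 falls. Of all tested genes 2069 rose and 2622 fell as reported, and 1071 and 1750 without the trend. The counts were 2099 and 2203 under quantile normalization and 1337 and 3511 under total count scaling. Total count scaling moved the median of all genes to -0.16 and quantile normalization to 0.08, against -0.02. The median of the initiation factor genes moved to 0.27 and 0.22, in that order, against 0.41. Leaving out 1 library at a time gave 17 (without KO replicate 3) to 29 rises and 1 fall. edgeR gave 30 rises and 1 fall, and DESeq2 31 and 1. Of the pathway genes, 19 rose and 1 fell as reported, with 6 and 0 without the intensity trend, 24 and 3 with library quality weights, 10 and 7 under total count scaling, 12 and 2 under quantile normalization, and 3 falls by DESeq2. Leaving out 1 library gave 8 (without KO replicate 3) to 16 rises, with 12 without WT replicate 2, and 0 (without KO replicate 1, KO replicate 3 or WT replicate 2) to 1 falls. The log2 ratio difference of Eif4ebp1/Eif4e ran from -0.085 to 0.044 and that of Eif5a2/Eif5a from -0.52 to 0.15 when 1 library was left out. Signs also turned for uncalled genes. Eif1ax (-0.015) and Eif3e (-0.001) did so under quantile normalization, and Eif1b under total count scaling (-0.11) and when 1 library was left out (-0.045 to 0.155). Eif4a2 was -0.005 under upper quartile scaling, -0.14 under total count scaling, -0.16 under quantile normalization, -0.003 by edgeR and -0.081 to 0.088 when 1 library was left out. The cause was not tested. At this depth Eif4ebp3 was at or near the floor of 3 reads.

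Same-numbered KO and WT libraries did not deviate together (correlations -0.023, -0.011 and -0.021). No label pairs them, and these correlations cannot tell whether they were prepared together. With the replicate number as a block 28 genes rose and 1 fell, with Eif5 gained and Eif2b2 and Eif2b5 lost, and the smallest p for a ratio was 0.25.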
